A study of Mus musculus with 27 samples.

Results

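Hepatic stellate cells (HSCs) from mice 7 d after a single injection of carbon tetrachloride (CCl4) were compared with HSCs from healthy mice, which concerns 8 of the 27 libraries of the series. The libraries were chosen by their labels alone, 4 of the acute 7 d group and 4 of the healthy group, and every gene of the count table entered the comparison. All mice were male Balb/c animals, and those of both groups were 10 to 12 weeks old, in the acute 7 d group at injection. The acute 7 d mice had received 1 intraperitoneal dose of 0.5 µL of CCl4 per g of body weight in mineral oil, and the healthy mice were not injected, so that the effects of the toxin, the oil and the injection cannot be told apart. HSCs of both groups were isolated by liver perfusion, sorted for the ultraviolet signal of stored retinoid and lysed without culture. Each replicate was an individual experiment according to the study, and the hour of day at which livers were taken is not given in the sources used here. Groups at 72 h after 1 injection and at 72 h after a course of 8 injections over 4 weeks (chronic 72 h) served as neighbours in time. Each had 4 libraries, and chronic 72 h mice were 8 to 10 weeks old when their course began.

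HSCs lie in the space between hepatocytes and the sinusoidal endothelium, where they store vitamin A as retinyl esters in the healthy liver. CCl4 is turned into a reactive radical by cytochrome P450 enzymes of hepatocytes and kills the cells around the central veins. The injury activates HSCs, which lose genes of the quiescent state, take on contractile features and lay down collagen. After a single dose the liver regenerates, dead tissue is cleared by phagocytes, and the new matrix is broken down again by metalloproteinases and other proteases.

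Total counts were between 10.8 M and 13.1 M in the 8 libraries, and counts of libraries of the same group differed by more than sampling noise, with a chi-square of 31.6 to 90.1 per degree of freedom, so each was counted as 1 replicate. In a principal component analysis of the 500 most variable genes, the first component (51.1% of the variance) separated the 4 healthy from the 4 acute 7 d libraries. Healthy replicate 4 stood apart from the other healthy libraries on the second component (13.4%). It also had the highest summed level of 24 hepatocyte markers, 11797 CPM (counts scaled to library size) against 1445 to 2724 CPM in the other healthy and 4845 to 8053 CPM in the acute 7 d libraries. All 18 HSC markers were detected in both groups, with summed levels of 31946 to 51356 CPM in healthy and 19699 to 23101 CPM in acute 7 d libraries. Counts are also given without healthy replicate 4 where leaving it out moved them.

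At 7 d after the injection, HSC libraries held more RNA of collagens, of collagen crosslinking and matrix degrading enzymes and of macrophage genes than healthy libraries, and less RNA of genes of the quiescent state. In edgeR's quasi-likelihood test, genes counted as called had to change by more than 2-fold with a p below 0.05 after Benjamini-Hochberg adjustment. Of 18758 genes tested, 1732 (9.23%) were higher and 1058 (5.64%) lower at 7 d. Without healthy replicate 4 these counts were 1896 and 1373. The shares of 9.23% and 5.64% are the background for counts of list members against healthy libraries below. The 4 libraries of one group lay wholly above or below the 4 of the other for 1504 of the genes called higher and 730 of those called lower, where 24.6% of all genes tested showed such a separation in either direction. Fitted changes were larger upwards, with a median of 2.33 on the log2 scale and 365 genes above 16-fold, than downwards, with a median size of 1.66 and 72 genes above 16-fold. In 161 of the genes called higher every healthy library was at 0, and in 33 of those called lower every acute 7 d library was at 0. The fitted folds of such genes depend on the prior count and enter these medians and 16-fold counts without bounds. How far they account for the difference in size was not tested.

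**Figure D1:**
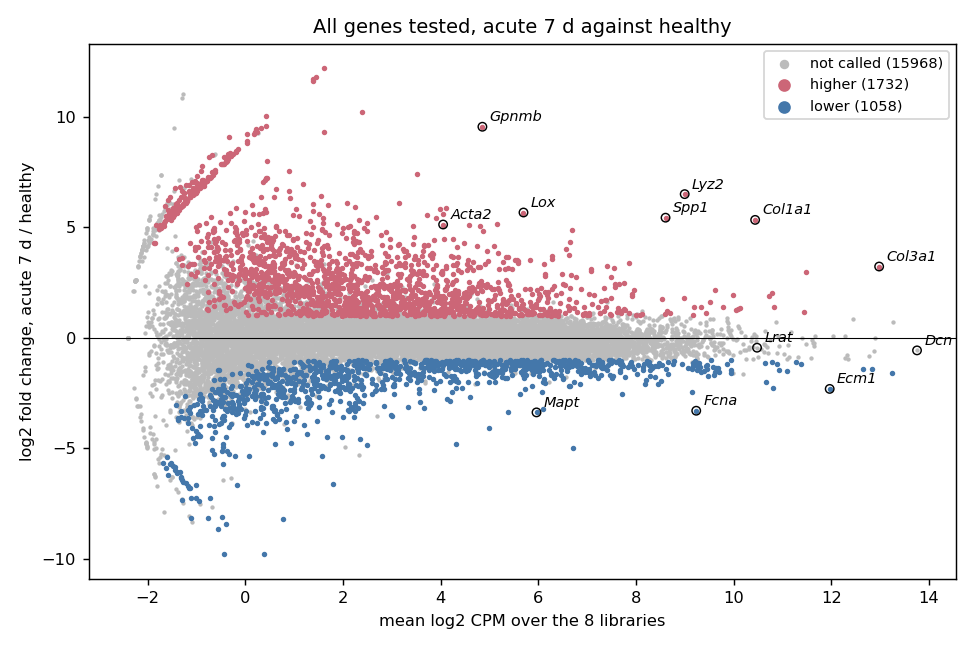
Each point is 1 of the 18758 genes tested, with its mean log2 CPM over the 8 libraries on the x axis and the log2 fold change of acute 7 d over healthy libraries on the y axis, red where called higher (1732) and blue where called lower (1058). Labelled genes are ringed, and Gpnmb, Lyz2, Spp1, Col1a1 and Col3a1 combine a high level with a large rise, while Ecm1 and Fcna are the clearest falls at a high level. The rising diagonal on the left holds genes at 0 in every healthy library, whose fitted fold change depends on the prior count.

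Collagens and other matrix proteins rose. Of 32 genes of fibrillar collagens and matrix, 18 were higher and 1 lower at 7 d, and their median log2 fold change was 1.34 against 0.01 over all genes tested, of which 9.23% were higher and 5.64% lower. Col1a1 (ENSMUSG00000001506, chr11:94936224-94953042), the alpha-1 chain of type I collagen, was at 187, 282, 304 and 148 CPM in the 4 healthy libraries and at 10033, 10949, 11989 and 4454 CPM in the 4 acute 7 d libraries. The groups did not overlap, and its log2 fold change was 5.34 ± 0.41 SE, adjusted p = 1.32e-08. Its partner chain Col1a2 rose from 1025, 1104, 1196 and 868 CPM to 9017, 9587, 9468 and 4976 CPM. Col3a1 (ENSMUSG00000026043, chr1:45311538-45349706), which forms the thinner fibrils of early repair tissue, was steady at 2678, 2744, 2619 and 2579 CPM in healthy libraries and reached 26672, 27787, 26039 and 19205 CPM at 7 d (3.23 ± 0.27 SE, adjusted p = 2.13e-08). In all 3 genes acute 7 d replicate 4 was the lowest of its group, yet above every healthy library.

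Further matrix members rose from a low base. The minor fibrillar collagen Col11a1 was between 0 and 0.453 CPM in healthy and between 7.36 and 16.3 CPM in acute 7 d libraries. Col12a1, a collagen that decorates fibrils, rose by 3.93 on the log2 scale, the adhesion-modulating glycoprotein Tnc by 3.74, and the proteoglycan Vcan by 3.71. Thbs1, thrombospondin 1, an activator of latent TGF-beta, was at 79.6, 114, 66.5 and 133 CPM in healthy and 267, 447, 748 and 701 CPM in acute 7 d libraries (2.46 ± 0.33 SE, adjusted p = 9.93e-06). The small leucine-rich proteoglycans were an exception among abundant members. Dcn, which binds collagen fibrils, was at 20919, 20131, 7652 and 21763 CPM in healthy and 12921, 9594, 13338 and 11709 CPM in acute 7 d libraries and was not called, and Lum, with 0.85 on the log2 scale, stayed under the 2-fold limit. The 1 member called lower was Efemp1, a fibulin of elastic and basement membrane matrix, which fell from 767, 564, 634 and 659 CPM to 194, 201, 209 and 376 CPM.

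Enzymes that modify collagen rose where they were called. Of 22 tested, 10 were higher and 12 were not called, with a median log2 fold change of 0.62. Lox, which crosslinks collagen and elastin by oxidising lysine, was at 5.62, 7.9, 5.98 and 10.1 CPM in healthy and 482, 445, 376 and 216 CPM in acute 7 d libraries (5.68 ± 0.51 SE, adjusted p = 7.7e-08). Loxl2, a relative of Lox, was at 32.7, 23, 20.1 and 20.4 CPM and 174, 92.8, 50.6 and 46.1 CPM, with acute 7 d replicate 1 well above the other 3. P4ha3, an alpha subunit of prolyl 4-hydroxylase, had no count in any healthy library and 17.3, 16.3, 14.4 and 1.84 CPM at 7 d, at least 46.3-fold higher when each healthy library is given 3 counts. By contrast P4hb (0.50 on the log2 scale), the shared subunit of that enzyme, and Pcolce (0.16), which speeds the trimming of procollagen, were not called. Among 21 basement membrane genes tested of 23 listed, 3 were higher and 1 lower. Col4a5 rose from at most 1.94 CPM to 22.6 to 48.7 CPM and Col15a1 from 1.18 to 3.2 CPM to 30.2 to 78.6 CPM, the epithelial laminin chain Lamb3 rose by 1.42 on the log2 scale, and the laminin chain Lama1 fell from 134, 187, 179.8 and 57.6 CPM to 30, 40.7, 43.7 and 38.2 CPM. The main type IV chain Col4a1, with 872, 1117, 897 and 793 CPM in healthy and 1339, 1629, 1436 and 902 CPM in acute 7 d libraries, was not called (0.53 ± 0.24 SE, adjusted p = 0.117).

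**Figure D2:**
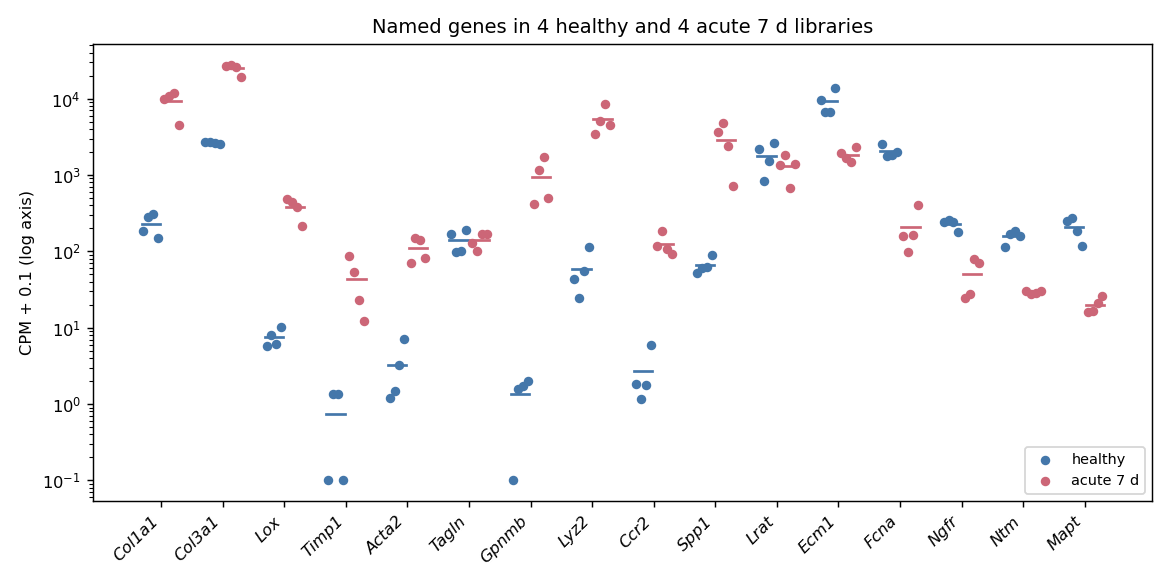
Each point is the CPM plus 0.1 (log axis) of a named gene in 1 library, blue for the 4 healthy and red for the 4 acute 7 d libraries, and each bar is the group mean. Tagln and Lrat overlap between the groups, while the other 14 genes do not.

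Genes that break down matrix rose as well. Of 28 tested of 30 listed, 18 were higher and 1 lower at 7 d, with a median log2 fold change of 2.31 (2.18 with the 3 members at 0 in every healthy library set to their lower bounds). Mmp12, the elastase of macrophages, was at 0.272, 0.488, 1.01 and 3.29 CPM in healthy and 28.1, 81, 179 and 70.1 CPM in acute 7 d libraries (6.11 ± 0.81 SE, adjusted p = 1.12e-05). Mmp13, an interstitial collagenase, was at 0.635, 0.293, 0.674 and 0.693 CPM and 2.99, 4.68, 14.2 and 18.2 CPM. Mmp8 and Mmp9, a collagenase and a gelatinase abundant in neutrophils, were at 0 in all healthy libraries and rose to 1.46 to 4.85 CPM and 0.805 to 3.72 CPM, at least 13.3-fold and 8.04-fold higher. The lysosomal protease Ctss, cathepsin S, rose from 17.7, 9.85, 18 and 38.3 CPM to 373, 512, 992 and 568 CPM. Timp1, an inhibitor of metalloproteinases, was at 0, 1.27, 1.26 and 0 CPM in healthy and 86.8, 54, 22.7 and 12 CPM in acute 7 d libraries (6.10 ± 1.04 SE, adjusted p = 0.000184). The abundant members Timp2 (0.32 on the log2 scale) and Mmp14 (0.78), the membrane-bound activator of Mmp2, were not called. The plasminogen activators Plat and Plau and the receptor Plaur were called higher. Summed levels of 18 pan-macrophage markers and 11 neutrophil markers were also higher at 7 d, at 4901 to 12463 CPM against 124 to 430 CPM and at 35 to 58.8 CPM against 0.39 to 2.18 CPM, and their part in this list was not tested. Since RNA was measured in bulk, fewer or more cells of a type and less or more RNA per cell cannot be told apart.

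Some matrix breakdown genes called higher share a short element just before a transcription start. RefSeq promoters on GRCm38.p6, the 250 bases before each start, were found for 11 of the called members, and 4 of these hold TGANTCA, the site bound by AP-1 (Fos and Jun dimers), on either strand. All 4 with a match are shown, and the match begins between 35 and 69 bases before the start. Capitals mark the match, all 4 genes lie on the plus strand, and no other motif searched overlaps it. The windows are chr9:7347124-7347373 for Mmp12 (the downstream of its 2 starts in the table), chr9:7272264-7272513 for Mmp13, chr9:7445572-7445821 for Mmp3 and chr7:24462233-24462482 for Plaur.
Mmp12: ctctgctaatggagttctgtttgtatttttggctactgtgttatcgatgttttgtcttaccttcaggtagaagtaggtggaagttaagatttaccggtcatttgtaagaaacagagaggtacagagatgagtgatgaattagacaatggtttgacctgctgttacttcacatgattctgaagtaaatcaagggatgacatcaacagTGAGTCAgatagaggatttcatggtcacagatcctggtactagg
Mmp13: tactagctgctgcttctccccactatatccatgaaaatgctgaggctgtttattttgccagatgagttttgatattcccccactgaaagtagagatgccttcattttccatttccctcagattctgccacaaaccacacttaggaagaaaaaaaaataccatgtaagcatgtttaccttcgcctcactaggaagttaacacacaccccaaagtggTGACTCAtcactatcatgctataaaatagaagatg
Mmp3: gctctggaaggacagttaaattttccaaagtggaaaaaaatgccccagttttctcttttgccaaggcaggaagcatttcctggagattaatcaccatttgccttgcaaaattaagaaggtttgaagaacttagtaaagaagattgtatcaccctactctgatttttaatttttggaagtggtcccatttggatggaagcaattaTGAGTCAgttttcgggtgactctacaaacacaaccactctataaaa
Plaur: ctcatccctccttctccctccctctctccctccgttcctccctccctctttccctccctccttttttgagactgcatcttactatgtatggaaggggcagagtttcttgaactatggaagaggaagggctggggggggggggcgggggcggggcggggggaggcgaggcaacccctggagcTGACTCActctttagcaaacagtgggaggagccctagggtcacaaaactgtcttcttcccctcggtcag
The match begins 44, 35, 46 and 69 bases before the start. Such a match was held by 4.8% of the 14868 promoters of genes tested, by 8.33% of those of genes called higher, by 6.33% of those of genes called lower and by 23.8% of the 21 promoters of matrix breakdown genes, called or not. In the other lists searched the share was 13.3% for pan-macrophage markers, 7.69% for fibrillar collagens and matrix, 4.17% for lysosomal and 3.7% for quiescent genes. In the libraries Mmp3, stromelysin, was at 2.18, 1.37, 1.26 and 0 CPM in healthy and 6.23, 7.05, 4.27 and 3.53 CPM at 7 d, and Plaur at 1.45, 1.95, 1.52 and 4.51 CPM and 15.6, 19.3, 40 and 21.2 CPM. Of the AP-1 genes shown here, Jun fell from 11772, 12962, 12936 and 10594 CPM to 4198, 3445, 4656 and 6031 CPM (-1.40 ± 0.17 SE, adjusted p = 3.22e-06), and Fosb from 1808, 1642, 1215 and 1113 CPM to 167, 509.5, 647 and 924 CPM. Fos, at 10209, 9639.7, 8883 and 8864 CPM in healthy and 5104, 4875, 6773 and 7759.9 CPM in acute 7 d libraries, stayed within the 2-fold limit at -0.62 on the log2 scale, as did Junb at -0.82.

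Contractile genes did not rise as a group. Of 19 tested of 20 listed, 2 were higher and 1 lower, with a median log2 fold change of -0.05 (0 with 1 member at its bound), and without healthy replicate 4 Acta2 was the 1 member called higher. Acta2 (ENSMUSG00000035783, chr19:34241090-34255590), the smooth muscle actin used as the marker of myofibroblasts, was at 1.09, 1.37, 3.12 and 6.93 CPM in healthy and 69.8, 151, 141 and 81.4 CPM in acute 7 d libraries (5.13 ± 0.83 SE, adjusted p = 9.31e-05). The groups did not overlap. Lmod1, a nucleator of actin filaments in muscle, went from 2.45, 7.51, 4.97 and 3.03 CPM to 7.93, 13.5, 14.2 and 8.97 CPM, a call that was lost without healthy replicate 1, 3 or 4 or acute 7 d replicate 2 or 3. Tagln, another marker of contractile cells, was at 168, 97.2, 99.9 and 190.2 CPM and 129, 101, 168 and 167 CPM, and the groups overlapped (0.02 ± 0.46 SE, adjusted p = 0.979). Smtn, smoothelin, fell from 431, 474, 552 and 381 CPM to 118, 146, 143 and 186 CPM, and Des, the intermediate filament protein of HSCs, was lower in every acute 7 d library without passing the 2-fold limit (-0.70).

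Genes of early activation, including targets of the mechanical sensor YAP, were mostly not called at 7 d. Of 20 tested, 5 were higher and 1 lower, with a median of 0.15, beside 9.23% higher and 5.64% lower of all genes tested. Ankrd1, a canonical YAP target, was at 1.63, 0.585, 0.758 and 3.64 CPM in healthy and 1.46, 1.39, 2.82 and 2.61 CPM in acute 7 d libraries, beside a mean of 88.9 CPM in the 3 libraries taken 24 h after the single injection (acute 24 h). Tnfrsf12a, the receptor of the cytokine TWEAK, was at 6.8, 7.41, 8.09 and 9.45 CPM and 4.77, 8.12, 10.7 and 18.7 CPM, beside 386 CPM in acute 24 h libraries. Cdkn1a, the cell cycle inhibitor p21, and Klf6, an early HSC activation factor, overlapped between the groups as well, with log2 fold changes of -0.25 and -0.34. The receptor kinase Axl was called, from 225, 297, 306 and 293 CPM to 615, 687, 670.0 and 508 CPM. Tuba1c, an alpha tubulin, went from 0.816, 0.683, 0.506 and 1.21 CPM to 133, 109.5, 156 and 156 CPM, but its reads are hard to tell from those of Tuba1a and Tuba1b, which moved the other way (-0.65 and -1.03). Among 20 immediate early genes, 2 were higher (Egr3 and Nr4a2) and 4 lower (Jun, Fosb, Ier3 and Dusp1). The call of Egr3 was lost without healthy replicate 3 or acute 7 d replicate 2 and that of Dusp1 without acute 7 d replicate 1, and both, with that of Fosb, when only the 2 groups were fitted.

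The quiescent signature was lower. Of 26 genes of the quiescent state, 15 were lower and 1 higher, with a median log2 fold change of -1.31, and of 18 general HSC markers 10 were lower and 8 not called. Ecm1 (ENSMUSG00000028108, chr3:95734147-95739569), an extracellular protein that restrains TGF-beta activation in the liver, was at 9714, 6587, 6785 and 13746 CPM in healthy and 1962, 1683, 1467 and 2305 CPM in acute 7 d libraries (-2.31 ± 0.32 SE, adjusted p = 1.65e-05). Fcna, a lectin of the complement system, fell from 2531, 1765, 1839 and 2027 CPM to 161, 96.8, 165 and 406 CPM (-3.30 ± 0.36 SE, adjusted p = 8.9e-07). The neural genes that mark quiescent HSCs fell too. Ngfr, the low-affinity neurotrophin receptor, went from 241, 256, 243 and 178 CPM to 24.6, 27.7, 79.7 and 71 CPM, with replicates 1 and 2 below replicates 3 and 4 at 7 d. Ntm, neurotrimin, went from 113, 171, 186 and 157 CPM to 29.8, 27.8, 28.5 and 30.3 CPM (-2.43 ± 0.26 SE, adjusted p = 6.69e-07), and Mapt, the microtubule protein tau, from 250.3, 274, 186 and 118 CPM to 15.9, 16.6, 20.9 and 26.3 CPM. Gfap, the glial filament protein, went from 54.7, 50.1, 64.2 and 37.4 CPM to 14.2, 18.5, 17.1 and 18.6 CPM. Hgf, the hepatocyte growth factor, was at 1093, 1185, 1111 and 1288 CPM and 426, 571, 265 and 489.9 CPM, and Reln, reelin, at 2802, 2898, 2864 and 1909 CPM and 1121, 1356, 1169.6 and 1267 CPM (-1.09 ± 0.21 SE, adjusted p = 0.000574). Rgs5, a regulator of G protein signalling of pericytes, fell from 3006 to 3518 CPM to 684 to 863 CPM. The 1 member called higher was Pparg, the adipogenic nuclear receptor, at 0, 0.878, 1.35 and 1.56 CPM in healthy and 5.42, 5.82, 10.5 and 7.05 CPM in acute 7 d libraries. Pparg is also made by macrophages, whose marker sum rose, and the part of these was not tested.

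Among the 8 largest falls at a mean log2 CPM of at least 3 were also Egfem1, from 124 to 150.5 CPM to 8.53 to 20.2 CPM, the proprotein convertase Pcsk6, from 191 to 252 CPM to 17.2 to 33.3 CPM, and Ttyh1, a membrane protein of neural cells, from 28.2 to 51.4 CPM to 3.3 to 5.33 CPM. Gm10800 and Gm10801, near-identical predicted genes on chromosome 2, fell by 5.0 and 4.80 on the log2 scale, and their healthy values ranged from 166 to 1716 CPM and from 33.5 to 276 CPM. They varied as widely within another group, Gm10800 being at 543, 194, 10.2 and 12.9 CPM in the acute 72 h libraries. The part of such differences between libraries in these falls was not tested.

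Retinoid genes were mostly not called. Of 25 retinoid genes tested of 29 listed, 3 were higher and 1 lower, with a median of 0.11. Without healthy replicate 4 these counts were 7 and 2. Of all genes tested, 9.23% were higher and 5.64% lower with every library kept. Lrat, which makes retinyl esters and defines HSCs, was at 2175, 822, 1548 and 2630.4 CPM in healthy and 1371, 1803, 683 and 1411 CPM in acute 7 d libraries, with overlapping groups (-0.45 ± 0.31 SE, adjusted p = 0.328). The beta-carotene oxygenase Bco1 fell from 155, 182, 146 and 153 CPM to 80.1, 70.5, 70.9 and 86.9 CPM, and the retinal reductase Dhrs3 and the retinal dehydrogenase Aldh1a3 rose by 1.54 and 1.91 on the log2 scale. Aldh1a2 was at 0 in every healthy library and at 1.46, 0.738, 0 and 0.843 CPM at 7 d, at least 2.82-fold higher. Cell sorting selects for retinoid, so the retinoid content of unsorted cells is not covered.

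Among 24 members tested of the TGF-beta and PDGF pathways, 5 were higher and 2 lower, with a median of 0.21. Of the ligands, Tgfb2 rose from 5.8, 6.73, 7.84 and 2.6 CPM to 19.7, 20.4, 24.1 and 25.1 CPM and Pdgfc from 0.725, 0.878, 2.36 and 0 CPM to 3.72, 7.63, 15.9 and 12.5 CPM. The latent TGF-beta binding protein Ltbp2 rose from 2.9, 7.02, 9.94 and 4.68 CPM to 226, 271, 221 and 167 CPM (5.17 ± 0.53 SE, adjusted p = 4.95e-07), while its relative Ltbp4 fell from 1446, 1968, 2150.0 and 1507 CPM to 418, 438, 633 and 828 CPM. Both PDGF receptors were not called, with Pdgfra at 542, 526, 597 and 823 CPM in healthy and 546, 693, 509 and 484 CPM in acute 7 d libraries, and Pdgfrb at 902, 1179, 1262 and 866 CPM and 784, 1133, 1324 and 867 CPM.

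Of the 8 largest rises at a mean log2 CPM of at least 3 without overlap of the groups, 6 were genes of macrophages and monocytes (Gpnmb, Lyz2, Mmp12, Clec7a, Lyz1 and Ccr2), and the others were Tuba1c and Lox. Gpnmb (ENSMUSG00000029816, chr6:49036546-49070929), a transmembrane glycoprotein of macrophages that have taken up debris and lipid, was at 0, 1.46, 1.6 and 1.91 CPM in healthy and 423, 1161, 1728 and 494 CPM in acute 7 d libraries (9.56 ± 1.07 SE, adjusted p = 1.52e-06). Lyz2, lysozyme of myeloid cells, was at 44, 24.6, 55.8 and 113 CPM and 3467, 5048, 8584 and 4523 CPM (6.51 ± 0.62 SE, adjusted p = 1.71e-07). Its near-identical copy Lyz1 rose by 5.86 on the log2 scale and may hold reads of Lyz2. Clec7a, the beta-glucan receptor dectin 1, went from 1.99, 0.683, 3.2 and 3.73 CPM to 74.9, 122, 223 and 160.2 CPM, and Ccr2, the chemokine receptor of inflammatory monocytes, from 1.72, 1.07, 1.69 and 5.81 CPM to 118, 186, 107 and 91.7 CPM (5.60 ± 0.51 SE, adjusted p = 7.81e-08). Of the 18 pan-macrophage markers 17 were higher, with a median log2 fold change of 3.89, and of 14 monocyte-derived macrophage markers 12 were higher, with a median of 4.58 (4.02 with 2 members at their bounds). Itgb2 and Mpeg1 rose by 4.49 and 4.34. S100a4 was at 0 in healthy libraries and at 8.01, 9.76, 10.1 and 2.53 CPM at 7 d, at least 28.3-fold higher. Of Kupffer cell markers, which mark resident macrophages, 10 of 11 listed were tested and 4 were higher with a median of 1.73. Cd5l was at 30.8, 16.3, 47.5 and 65.8 CPM in healthy and 86.1, 146, 244 and 331 CPM in acute 7 d libraries, and the scavenger receptor Marco was at 0 in healthy and at 1.86, 0.984, 2.25 and 2.07 CPM in acute 7 d libraries. Without acute 7 d replicate 4, 1 of the 10 was called, and the call of Cd5l was lost without healthy replicate 1 or 2 as well.

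**Figure D3:**
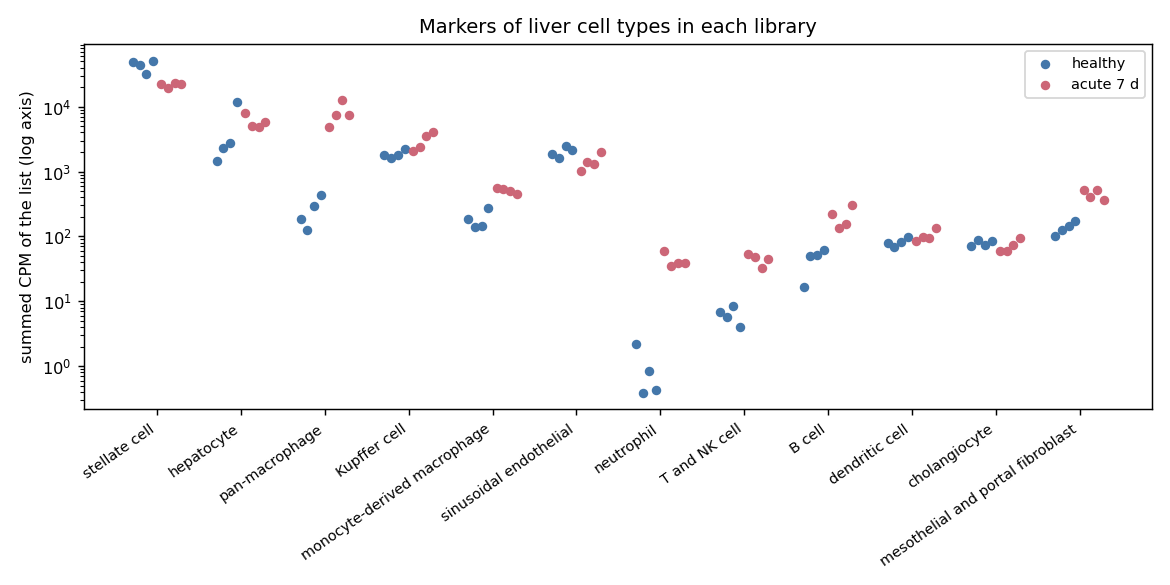
Each point is the summed CPM (log axis) of the markers of a liver cell type in 1 library, blue for healthy and red for acute 7 d libraries. Abundant members weigh most in a sum, Id3 and Slc40a1 among Kupffer cell and Dcn and Ecm1 among stellate cell markers. Overlap or separation of a sum therefore does not cover its less abundant members. Sums of the pan-macrophage, monocyte-derived macrophage, neutrophil, T and NK, B cell and mesothelial or portal fibroblast lists do not overlap between the groups and are higher at 7 d. The Kupffer cell, dendritic cell, sinusoidal endothelial and cholangiocyte sums overlap. The stellate cell sums are lower, and the hepatocyte sum of healthy replicate 4 lies above all others.

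Lysosomal genes and genes of lipid-associated macrophages rose with them. Of 26 tested, 16 were higher and 10 not called, with a median of 1.33. Spp1, osteopontin, a secreted cytokine and matrix protein, was at 51.8, 60.5, 62.3 and 90.3 CPM in healthy and 3606, 4775, 2425 and 717 CPM in acute 7 d libraries (5.44 ± 0.49 SE, adjusted p = 7.7e-08). Trem2, a lipid receptor of macrophages, went from 0, 0, 0.253 and 0 CPM to 22.9, 31.2, 123 and 27.4 CPM. Atp6v0d2, a proton pump subunit of macrophages and osteoclasts, was at 0 in healthy libraries and at 22.1, 68.4, 95.5 and 38.4 CPM at 7 d, at least 208-fold higher. Acute 7 d replicate 3 was the highest of its group for Gpnmb, Lyz2, Trem2 and Atp6v0d2 and for the summed pan-macrophage markers, but not for Spp1, which was highest in replicate 2. The abundant apolipoprotein Apoe (0.73) and the lysosomal membrane protein Lamp1 (0.18) were not called.

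Antigen presentation and complement genes rose as well. Of 13 genes of MHC class II presentation 11 were higher, with a median of 3.32, and without acute 7 d replicate 4 the count was 7. H2-DMb2 and H2-DMb1, which load peptides on class II molecules, went from 1.09, 0.683, 2.7 and 1.82 CPM to 20.1, 13.9, 23.5 and 25.5 CPM and from 1.18, 0.878, 1.43 and 1.65 CPM to 12.5, 15.1, 19.6 and 18.5 CPM. Cd74, the invariant chain, was at 3.26, 0, 18.4 and 0.0867 CPM in healthy and 33.2, 40.9, 78.2 and 181 CPM in acute 7 d libraries (3.93 ± 1.29 SE, adjusted p = 0.0318), a call that was lost without healthy replicate 1, 2 or 4 or acute 7 d replicate 4 and also when no filter on low counts was set or only the 2 groups were fitted. Of 18 complement genes 9 were higher and 1 lower (5 and 1 without acute 7 d replicate 4). C1qb rose from 30.6, 19.6, 62 and 70.1 CPM to 89.8, 139.5, 338 and 416 CPM and the receptor C3ar1 from 2.72, 1.66, 7.58 and 11.1 CPM to 59.8, 124, 160.2 and 107 CPM. F13a1, the transglutaminase chain of factor XIII, made by monocytes and macrophages, was at 0 in healthy libraries and at 34.4, 77.4, 38.2 and 22.1 CPM at 7 d, at least 159.7-fold higher. Masp1, a protease of the lectin pathway, fell from 769, 947, 1157 and 751 CPM to 290.2, 399, 342 and 461 CPM.

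Of 30 chemokines and cytokines tested of 31 listed, 12 were higher and 1 lower, with a median of 1.37. Osm, oncostatin M, rose from 0, 0, 0.843 and 1.13 CPM to 19.4, 16.6, 23.9 and 16.4 CPM (5.21 ± 0.62 SE, adjusted p = 2.35e-06) and Ccl6, a chemokine of myeloid cells, from 8.7, 5.17, 9.02 and 16.8 CPM to 94, 141, 194 and 148 CPM. Il18 rose to 2.3 to 5.52 CPM from at most 0.544 CPM. Cxcl1, a neutrophil attractant, was at 364, 208, 137 and 438 CPM and 340.4, 249, 399 and 586 CPM and was not called. The 1 member that fell was Il34, a ligand of the macrophage growth factor receptor Csf1r, from 126, 173, 69 and 126 CPM to 42.5, 17.5, 66.3 and 51.7 CPM, while Csf1r itself rose from 29.6, 21, 53.1 and 67.1 CPM to 156, 153, 489 and 441 CPM.

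Markers of lymphocytes and granulocytes were low but higher at 7 d. Of 11 neutrophil markers 7 were tested and those 7 were higher, with a median of 7.11 (3.74 with 4 members at their bounds). The other 4 had too few counts to be tested. Of the 11, 8 were at 0 in every healthy library. Such members could pass the filter only through other groups and could not be called lower, so this count was partly set by the filter. S100a8 was at 0 in healthy libraries and at 7.04, 2.13, 1.37 and 4.98 CPM at 7 d. T and NK cell markers were higher in 8 of 14 tested, with a sum of 32.8 to 54.3 CPM against 3.99 to 8.34 CPM, but the T cell receptor subunit Cd3e, at 3.54, 3.12, 0.927 and 0.78 CPM and 4.69, 2.3, 2.25 and 5.82 CPM, was not called. Cd3g, Klrb1c and Cd8a, called higher, were at 0 in every healthy library. They likewise could not be called lower, so this count too was partly set by the filter. B cell markers were higher in 8 of 10, with sums of 133 to 309 CPM against 16.6 to 61.6 CPM. Dendritic cell markers were higher in 5 of 9 tested of 11 listed, with Ccr7 rising from 3.72, 2.93, 2.95 and 4.16 CPM to 21.3, 16.2, 19 and 25.2 CPM. Itgax, also called higher, was at 0 in every healthy library and could not be called lower. Zbtb46, at 71.2, 60.3, 71.7 and 89.2 CPM in healthy and 44.2, 56.1, 51.8 and 76.1 CPM in acute 7 d libraries, and Batf3 were not called. The dendritic sums overlapped, at 68.7 to 98.6 CPM in healthy and 85.5 to 134 CPM in acute 7 d libraries. Of 13 markers of mesothelial cells and portal fibroblasts tested, 5 were higher. Among these Fbln2 went from 2.63, 2.24, 8.51 and 4.94 CPM to 132, 166, 76.5 and 33.9 CPM, Mfap4 from 9.97, 10.6, 16.5 and 13.4 CPM to 163, 59.2, 236 and 86.8 CPM and Cd34 from 8.97, 12.7, 19 and 18.3 CPM to 78.9, 63.8, 82.8 and 69.1 CPM.

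Markers of hepatocytes, sinusoidal endothelium and bile duct cells were mostly not called. Of 24 hepatocyte markers 1 was higher. That gene, Cyp2e1, the enzyme that activates CCl4, was at 2.63, 13.3, 15.8 and 28.3 CPM in healthy and 77.6, 63.7, 210.3 and 172 CPM in acute 7 d libraries, and without healthy replicate 4, 5 hepatocyte markers were higher. Alb, albumin, was at 127, 227, 209 and 881 CPM and 976, 584, 477 and 592 CPM. Of 18 endothelial markers 1 was higher (Lyve1), and without acute 7 d replicate 4 it was not. Of 9 cholangiocyte markers tested 0 were called in edgeR's test (3 at an unadjusted p below 0.05, and 0 in DESeq2's test).

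Proliferation genes were in part above healthy values. Of 25 tested, 12 were higher and 13 not called, with a median of 1.49, and without acute 7 d replicate 4 the count was 15. Ccnb2, a mitotic cyclin, went from 0.363, 0, 2.11 and 0.953 CPM to 30.4, 15.2, 14.7 and 3.6 CPM, Ccnb1 from 1.45, 3.9, 2.19 and 1.73 CPM to 26.4, 18.9, 8.77 and 2.76 CPM and the mitotic kinase Plk1 from 0, 2.24, 2.86 and 0 CPM to 18.3, 16, 10.7 and 4.29 CPM. In each of them replicate 4 was the lowest of the acute 7 d libraries. Mki67, the proliferation antigen, was at 9.7, 26.2, 23.3 and 4.59 CPM in healthy and 67.5, 59.5, 37.7 and 13.9 CPM at 7 d and was not called (1.49 ± 0.58 SE, adjusted p = 0.0659), although DESeq2's test called it. The replication licensing genes Mcm2 and Mcm4 were not called either, with log2 fold changes of -0.50 and -0.23.

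Stress programs were mostly not called. Of 22 genes of the unfolded protein response 0 were called in edgeR's test (2 at an unadjusted p below 0.05, and 0 in DESeq2's test), with a median log2 fold change of -0.07 and Hspa5, the chaperone BiP, at -0.54. Of 25 interferon-stimulated genes 1 was lower in edgeR's test, and DESeq2's test also called 2 higher, with a median of -0.36. The member that fell was Irf1, an interferon-responsive transcription factor, from 1173, 1033, 860.1 and 847 CPM to 260.1, 201, 375 and 623 CPM. Among 22 genes of cholesterol synthesis 1 was higher and 1 lower (Srebf2), with a median of 0.12.

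Circadian clock genes differed between the groups. Of 18 tested, 8 were higher (Bhlhe41, Ciart, Dbp, Hlf, Per3, Per2, Nfil3 and Tef) and 3 lower (Npas2, Arntl and Clock). Dbp, an output factor of the clock, was at 20.3, 4.19, 22.2 and 15.3 CPM in healthy and 128, 87.8, 51.8 and 39.8 CPM in acute 7 d libraries. Npas2, a partner of Arntl in the positive limb, fell from 50.3, 67.8, 64 and 70.2 CPM to 0.485, 2.54, 17.3 and 16.6 CPM (-2.77 ± 0.75 SE, adjusted p = 0.00936), and Arntl from 30.3, 48.1, 43.4 and 43.4 CPM to 3.15, 4.59, 25.5 and 16.6 CPM. Replicates 1 and 2 at 7 d were farther from healthy values than replicates 3 and 4 in Dbp, Npas2 and Arntl. The call of Arntl was lost without healthy replicate 2 or 3 or acute 7 d replicate 1 or 2, that of Dbp without healthy replicate 2 or acute 7 d replicate 1, and that of Per2 without acute 7 d replicate 1 or 2. The hour of collection is not given in the sources used here, and its part in these differences was not tested.

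The study defined a fibrogenic program of 173 genes on libraries of this series. Its initiatory program of 72 genes held those raised both 24 h after 1 injection in this series and early in culture, in libraries outside this series. Of the 172 fibrogenic genes tested, 114 were higher at 7 d than in healthy libraries, with a median log2 fold change of 2.04 (1.90 with 14 members at their bounds), and of the 72 initiatory genes 35 were higher, with a median of 1.24. Both were chosen on samples that include the healthy libraries, so these counts are not independent evidence of their direction.

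**Figure D4:**
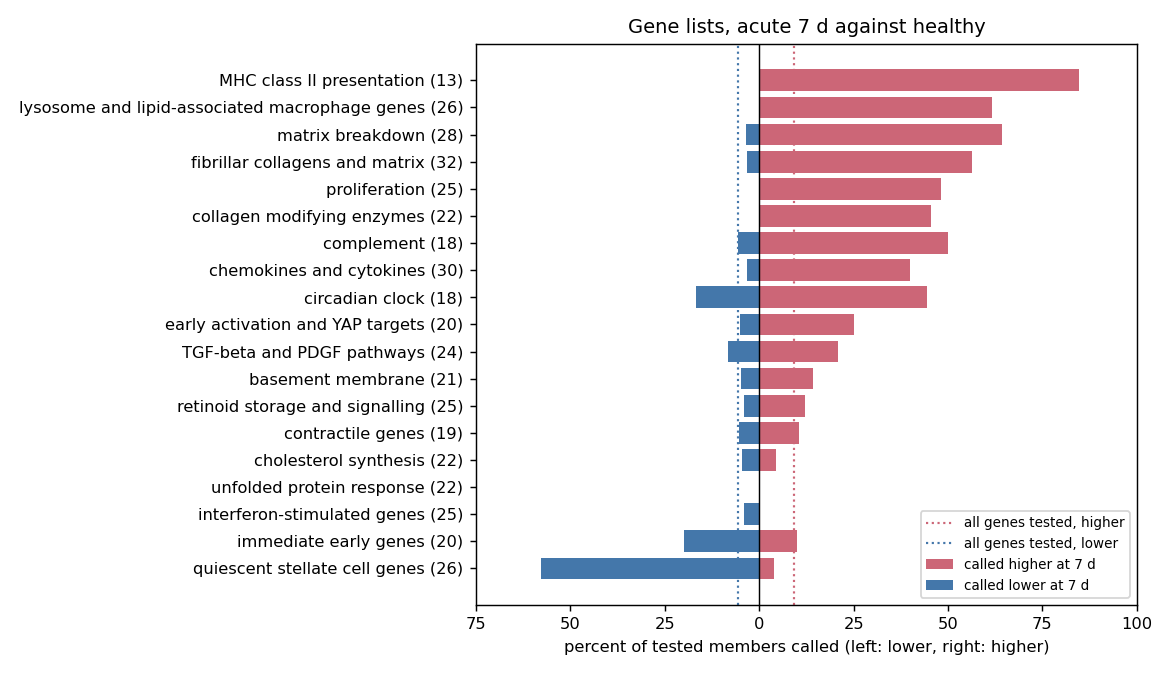
Bars give the percent of tested members of each list of genes by function (number tested in brackets, cell type markers and the programs of the study not drawn) called higher (right, red) or lower (left, blue) at 7 d, and dotted lines give the same over all 18758 genes tested, 9.23% and 5.64%. Among the lists drawn, MHC class II presentation, matrix breakdown, lysosomal and matrix genes extend farthest to the right, and genes of the quiescent state farthest to the left.

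To place the 7 d state in time, it was compared with the state 72 h after the same injection. Here 952 genes (5.08%) were higher and 512 (2.73%) lower at 7 d. Proliferation genes were lower in 18 of 25, with a median log2 fold change of -1.80, and Mki67 was at 129 to 206 CPM at 72 h (log2 fold change -1.91 ± 0.58 SE, adjusted p = 0.0325). Contractile genes were lower in 8 of 19. Tagln had a mean of 733 CPM at 72 h and was -2.38 ± 0.48 SE, adjusted p = 0.0021 on the log2 scale, whereas Acta2, at 212 to 621 CPM at 72 h, was not called (-1.62 ± 0.69 SE, adjusted p = 0.13). Among matrix genes Col1a1 was at 2264 to 5951 CPM at 72 h and was called higher at 7 d (1.26 ± 0.34 SE, adjusted p = 0.0175), while Col3a1 at 0.95 ± 0.25 SE, adjusted p = 0.0137 and Lox at 0.00 ± 0.42 SE, adjusted p = 1 were not called. Macrophage genes were higher at 7 d than at 72 h in 17 of 18 pan-macrophage markers, with a summed level of 423 to 748 CPM at 72 h. The rise was not limited to these. Also higher were 12 of 18 sinusoidal endothelial markers (median log2 fold change 1.77), 10 of 18 complement genes and 6 of 10 Kupffer cell markers. Gpnmb was at 12.4 to 56.2 CPM, Spp1 at 117 to 173 CPM and Cd74 at 0 to 7.51 CPM at 72 h, and each was called higher at 7 d (5.27 ± 0.87 SE, adjusted p = 0.00035, 4.40 ± 0.47 SE, adjusted p = 3.6e-06 and 4.38 ± 1.32 SE, adjusted p = 0.0337). Of the 26 genes of the quiescent state, 1 was higher at 7 d than at 72 h (Pparg), and Ecm1 (-0.37 ± 0.31 SE, adjusted p = 0.472), Ngfr (-0.54 ± 0.40 SE, adjusted p = 0.397) and Ntm (-0.27 ± 0.25 SE, adjusted p = 0.52) were not called.

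**Figure D5:**
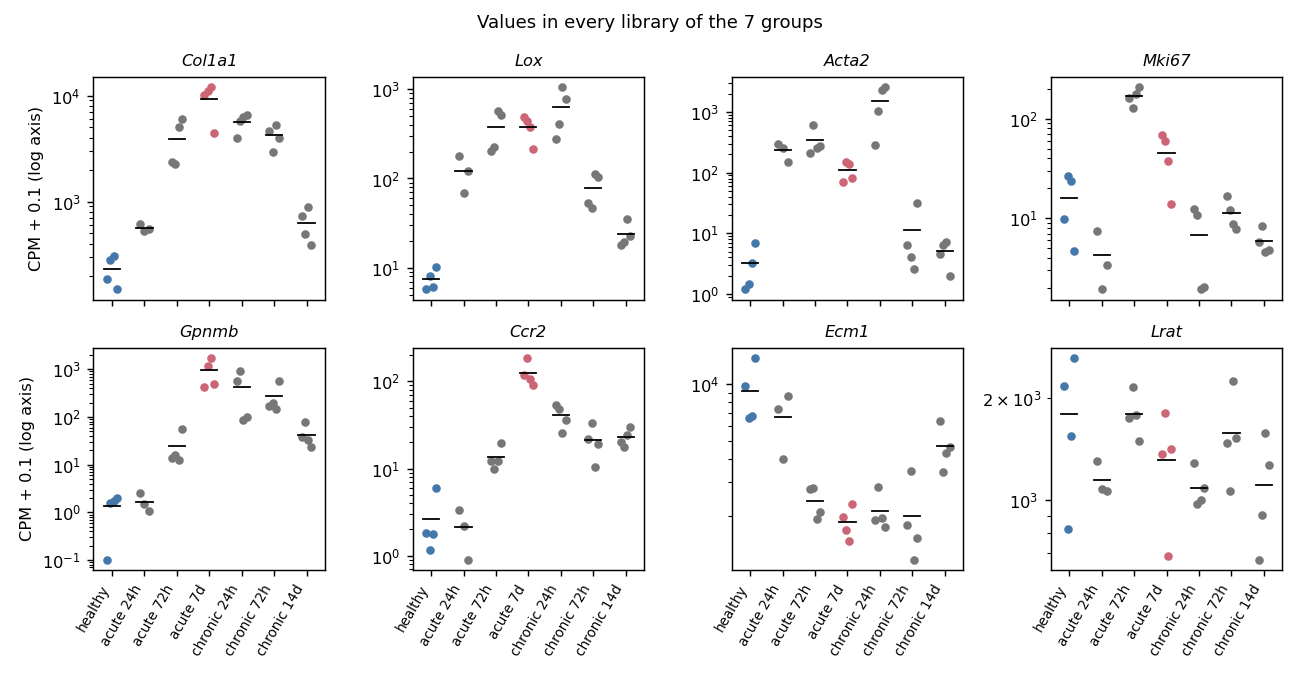
Each panel shows 1 gene, each point the CPM plus 0.1 (log axis) in 1 of the 27 libraries, and each bar the mean of a group, with healthy in blue, acute 7 d in red and the other 5 groups in grey. The highest acute group is 7 d for Col1a1, Gpnmb and Ccr2 and 72 h for Acta2 and Mki67.

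Against the chronic 72 h group, in which 8 doses had been followed by the same 72 h of rest as in the acute 72 h group, fewer genes were called. In edgeR's test 50 genes (0.267%) were higher and 31 (0.165%) lower in acute 7 d libraries, and 2 of the 4 chronic 72 h libraries had totals of 6.52 M and 7.11 M, under those of every acute 7 d library. With single libraries left out, these counts ranged from 11 to 85 and from 9 to 37. Of 32 genes of fibrillar collagens and matrix 4 were higher, of 22 collagen modifying enzymes 2, and of 19 contractile genes 1, which was Acta2. Acta2 was at 2.49 to 32 CPM in chronic 72 h libraries (3.29 ± 0.75 SE, adjusted p = 0.0425 on the log2 scale), Lox at 46.9 to 112 CPM (2.27 ± 0.44 SE, adjusted p = 0.0148), Vcan at 6.43 to 9.96 CPM (1.79 ± 0.35 SE, adjusted p = 0.0153) and Col3a1 at 8986 to 14876 CPM (1.13 ± 0.25 SE, adjusted p = 0.0325). Col1a1 missed the threshold with 1.15 ± 0.34 SE, adjusted p = 0.147. Spp1 (2.84 ± 0.44 SE, adjusted p = 0.00417), Lyz2 (2.39 ± 0.51 SE, adjusted p = 0.0293) and Ccr2 (2.59 ± 0.43 SE, adjusted p = 0.00707) were higher too. Of the 18 pan-macrophage markers Lyz2 was the 1 called higher, and their sum was 1102 to 2798 CPM in chronic 72 h libraries. For the quiescent gene Ecm1 the difference was -0.10 ± 0.31 SE, adjusted p = 0.974. Sox9, a factor of bile duct cells and of activated HSCs, was lower in acute 7 d libraries, at 16.7, 17.6, 13.1 and 28 CPM against a mean of 78.6 CPM.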

How the data were processed

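RNA of 27 HSC libraries was sequenced with single-end reads, and 8 of them (4 healthy, 4 acute 7 d) are compared here. Reads were checked with FastQC, STAR aligned them to the mouse build GRCm38.p6, and StringTie assembled genes, according to the methods of the study and the submitters' processing notes. What the authors deposited are unnormalized counts, 1 whole number for each Ensembl gene and library. Tool versions, strand, annotation release and the step from assembly to counts are not given in the sources used here, so reads of overlapping or antisense genes and of near-identical copies (Lyz1 and Lyz2, Gm10800 and Gm10801, Tuba1a, Tuba1b and Tuba1c) cannot be told apart. The table holds 53379 genes, 16198 without a count. Names and positions came from GENCODE M21, which holds 53274 of them. All columns matched a library, leaving 0 unmatched.

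The filter filterByExpr of edgeR, with the groups given, kept 18758 genes. A gene at 0 in every healthy library could pass it only through other groups, and could then not be called lower. After TMM scaling, all 27 libraries entered a single robust quasi-likelihood fit with 1 mean for each group (R 4.3.3, edgeR 4.0.16). Comparisons were contrasts of these means, and a call required more than a 2-fold change with a p below 0.05 after Benjamini-Hochberg adjustment. Standard errors (SE) were derived from the F statistic. Counts per 1 M reads (CPM) used the same factors, and log2 CPM used a prior count of 2. Where every library of a group was at 0, the fold is a lower bound with 3 counts per library in their place, about 0.253 to 0.293 CPM in healthy libraries, which covers counting error only. On simulated counts of the acute 7 d and healthy comparison (18295 genes, 200 changed by 2 on the log2 scale), 156 were recovered with 3 false calls. The changed genes were drawn from those averaging 1 CPM or more, so recovery below that level was not tested.

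Members and gene lists were chosen with earlier results of these data known. Named were a fixed set of HSC and macrophage genes, the 8 highest and 8 lowest log2 fold changes among called genes whose groups did not overlap and whose log2 CPM averaged 3 or more, and from each list up to 4 called and 2 uncalled members. Any member could be named where a count was 5 or fewer. Other members, such as Col1a2, Csf1r, Arntl, Mmp3, Mmp13, Plau, Plat, Plaur, Tuba1a and Tuba1b, and Ier3, Dusp1 and the clock genes, were named after their values were seen. Some members that the rule names are not reported here. Promoters came from RefSeq on GRCm38.p6, and the 250 bases before each start were searched on both strands, for 11687 genes tested. The motifs searched were those of PU.1, AP-1, TEAD and SMAD, the M-box, the E-box, the CCAAT box and the ISRE core.

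Alternatives were the test of DESeq2 1.42.0, its size factors in edgeR, scaling by library size alone, all genes unfiltered, genes averaging 1 CPM or more, both groups fitted alone, a threshold of 0.1, calls at any fold, a test against a 2-fold minimum, replicate numbers as blocks, and leaving out libraries 1 at a time. Called members of lists without healthy replicate 4 and without acute 7 d replicate 4 were added after seeing the data. Figures used Python 3.11.15, pandas 2.3.3 and matplotlib 3.10.9.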

Additional observations from a re-analysis of the deposited data

Results flagged for a closer look

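Among the 42 genes of the fixed set and of the largest changes, 84 groups of 4 libraries were examined for a library far from the other 3, and 2 were found, where chance gives about 1 in 20 groups. Reln was at 1909 CPM in healthy replicate 4, beside 2802 CPM in the nearest healthy library. Ccr2 was at 5.81 CPM in healthy replicate 4, beside 1.72 CPM in the nearest. Both lie in the library with the highest hepatocyte marker sum, whose part was not tested.

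The response to a single injection differed between 7 d and 72 h for 16 of these genes by edgeR's test of the difference. Of all genes tested, 5.08% were higher and 2.73% lower at 7 d in that comparison. The set includes the largest changes of the same acute 7 d libraries against healthy ones, which favours calls in the direction of those changes. On the log2 scale, 7 d over 72 h, the matrix and macrophage genes that were higher were Col1a1 (1.26), Spp1 (4.40), Gpnmb (5.27), Ctss (3.72), Cd74 (4.38), Lyz2 (4.61), Mmp12 (3.64), Clec7a (4.26), Lyz1 (4.53) and Ccr2 (3.23). Lower were Tagln (-2.38), Tnfrsf12a (-1.96), Mki67 (-1.91), Gm10800 (-3.03), Gm10801 (-2.86) and Gm42679 (-3.14). Among the acute 72 h libraries Gm10800, Gm10801 and Gm42679 ranged from 10.2 to 543, from 1.54 to 91.1 and from 13.5 to 150 CPM.

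Between acute 7 d and chronic 72 h libraries 8 of these genes differed in the same test, all higher in acute 7 d libraries. Of all genes tested, 0.267% were higher and 0.165% lower there, and the choice of the set favours calls here too. The 8 genes were Acta2 (3.29), Col3a1 (1.13), Lox (2.27), Vcan (1.79), Spp1 (2.84), Lyz2 (2.39), Lyz1 (1.88) and Ccr2 (2.59).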

How the results depend on the processing

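Of 140 named genes, 117 kept their call and direction against healthy libraries under each alternative run for single genes. The test against a 2-fold minimum, the threshold of 0.1 and calls at any fold were run for counts of genes only. Calls of 17 genes were lost at least once, among them Cd74, Lyve1, Arntl, Lmod1 and Tuba1b under 5 or more, and Mki67 gained one with DESeq2 and without acute 7 d replicate 4. Scaling by library size alone raised the median log2 fold change over all genes by 0.102 and moved the share of higher among called genes from 62.1% to 69.7%, and under it the falls of Reln (-0.99), Bco1 and Tuba1b no longer passed 2-fold. With only the 2 groups fitted the calls of Bhlhe41, Mmp3 and Plk1 were lost, and that of Srebf2 without healthy replicate 2 or acute 7 d replicate 2. A test against a 2-fold minimum, with a stricter null, called 770 genes higher and 193 lower (80% higher), and without a fold minimum 1988 were lower. Leaving out 1 library gave 1518 to 1896 and 806 to 1373. Against acute 72 h, the 2-fold minimum gave 215 higher and 51 lower, no filter gave 330 lower, no fold minimum 1096 lower, and leaving out 1 library 683 to 931 and 347 to 483. Against chronic 72 h, the counts were 163 and 94 with DESeq2, 2 and 2 with the 2-fold minimum, 88 and 58 at an adjusted p of 0.1, and 33 and 20 higher with no filter and with only the 2 groups. Without 1 library they were 11 to 85 and 9 to 37. Higher counts moved over 1.5 times without any of acute 7 d replicates 1 (18), 2 (11), 3 (21) and 4 (85) or chronic 72 h replicates 1 (25), 2 (22) and 3 (16), and lower counts without acute 7 d replicates 1 (12), 2 (9) and 3 (14) or chronic 72 h replicate 3 (16). The causes were not tested.

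Uncalled genes near 0 changed sign. With 1 library left out Tagln ran from -0.12 to 0.21 (negative without healthy replicate 2 or 3 or acute 7 d replicate 3 or 4), Pdgfra from -0.28 to 0.0082 (without healthy replicate 4), Cdkn1a from -0.51 to 0.34 (without healthy replicate 3), Tnfrsf12a from -0.013 (without acute 7 d replicate 4) to 0.67 and Pdgfrb from -0.18 to 0.086 (positive without healthy replicate 2 or 3 or acute 7 d replicate 1 or 4). Pdgfrb was at 0.061 with library size alone. Replicate numbers do not pair the samples: deviations of same-numbered healthy and acute 7 d libraries correlated at 0.05, 0.08, -0.06 and 0.10. With the replicate block 1709 genes were higher and 1049 lower, and the calls of Cd74 (3.73, adjusted p = 0.0713) and Lyve1 (1.29, adjusted p = 0.0569) were lost. Without acute 7 d replicate 4, called members fell to 7 of 13 MHC class II genes, 5 of 18 complement genes, 3 dendritic cell and 1 Kupffer cell marker. Without healthy replicate 4 they rose to 7 retinoid, 5 hepatocyte and 3 cholesterol genes. With 4 libraries a group and 78% of simulated 4-fold changes recovered among genes averaging 1 CPM or more, smaller changes can be missed. Recovery of less abundant genes was not tested.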

Other observations

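The shares of genes called were set side by side by gene class, with no test between classes. Of 14078 protein-coding genes tested, 1527 (10.8%) were higher and 593 (4.21%) lower at 7 d. Of 854 genes of the annotation's class TEC, putative transcripts that await experimental evidence, 13 were higher and 235 (27.5%) lower, and 35 of the sense intronic transcripts (34.7%) were lower. The number of genes detected ran from 18807 to 26162 in healthy and from 22035 to 22379 in acute 7 d libraries. The sense intronic Gm42679 varied within groups, at 173, 206, 181 and 40 CPM in healthy and 150, 134, 19.6 and 13.5 CPM in acute 72 h libraries. The part of such differences between libraries in these shares was not tested. Of 10 immunoglobulin constant genes, 7 were higher. Among long intergenic RNAs 36 of 473 were higher and 44 lower. Gm7932 had no count in healthy libraries and 7.56 CPM ± 2.81 (SD, n = 4) at 7 d.

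Myl12a and Myl12b, near-identical regulatory light chains of myosin, did not move alike, with log2 fold changes of -2.53 and -0.29, and reads of one may have been counted for the other.

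PU.1, the factor that defines myeloid cells, binds GAGGAAGT. In the 250 bases before a start, 2.5% of promoters of genes tested held it on either strand, beside 4.16% of those of genes called higher and 1.54% of those of genes called lower. None of the 15 promoters of pan-macrophage markers (0%) held it, and among called matrix breakdown genes Mmp8 and Mmp12 held it, 221 and 88 bases before a start.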
